A study of Homo sapiens with 12 samples.

Results

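Activin, bone morphogenetic protein (BMP) and TGF-beta signals are tuned by secreted traps, co-receptors and intracellular inhibitors, and 10 genes of this kind were followed across HepG2 cells with less or more thiosulfate sulfurtransferase (TST). The 10 genes, of 57500 in the count data, were FST, FSTL3, INHBA, INHBE, BAMBI, SMAD6, SMAD7, ID1, ID3 and TGFBR3. FST and TGFBR3 were chosen because their counts were lower after TST silencing in these same libraries, so their differences are given as descriptions without a test. The other 8 were added as the related ligands, antagonists, pseudoreceptor, inhibitory SMADs and target genes. HepG2 is a human hepatocellular carcinoma line that keeps many features of hepatocytes, and TST is a mitochondrial enzyme that converts cyanide to thiocyanate. Total RNA was sequenced from 12 libraries in 3 groups of 4: unmodified cells (WT), cells with a stably integrated lentiviral plasmid for a short hairpin RNA against TST (shTST), and cells with a stably integrated lentiviral, codon-optimized TST driven by a CMV promoter and selected with blasticidin (overTST). All groups were kept in standard culture medium with 400 µM glycine for 24 h. No library of cells with an empty or scrambled vector was analysed here, so vector, selection and TST level cannot be told apart. The labels number the replicates without saying whether they came from separate cultures, although the methods describe independent experiments, and p-values measure the spread between these libraries.

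In this pathway, dimeric ligands bring type II and type I receptor kinases together, and the receptors phosphorylate SMAD transcription factors. TGF-beta and activins act mainly through SMAD2 and SMAD3, whereas BMPs act through SMAD1, SMAD5 and SMAD9, and both branches share SMAD4. Follistatin (FST) and follistatin-like 3 (FSTL3) bind activins outside the cell, betaglycan (TGFBR3) presents TGF-beta ligands and helps inhibin to block activin receptors, BAMBI is a receptor decoy without a kinase, and SMAD6 and SMAD7 are feedback inhibitors induced by the pathway. In liver, hepatocytes are a main source of the activin subunits INHBC and INHBE and of hepcidin (HAMP), the iron hormone set by BMP signals.

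The libraries held 28866175 to 45120508 counts in WT, 27527854 to 33865386 in shTST and 22911380 to 27414142 in overTST. The overTST libraries held fewer counts than WT without overlap (two-sided exact permutation p = 0.0286, the smallest that 4 against 4 allows). TST had 49.0 ± 2.59 CPM (counts scaled to the TMM-adjusted library size, SD, n = 4) in WT, 34.2 ± 1.62 in shTST and 57.9 ± 4.90 in overTST. Its log2 fold change against WT was -0.52 in shTST (adjusted p = 3.2e-06) and 0.24 in overTST (adjusted p = 0.00384), but 0.097 in overTST (adjusted p = 0.201) after a correction for gene length, and reads of a codon-optimized transgene need not count toward TST. All 8 hepatocyte markers checked (among them ALB and TTR) were above 1 RPKM (CPM per kilobase of exonic length) in every group. Of 14 fibroblast, endothelial and immune markers, PDGFRB and CD14 were above 1 RPKM. The share of mitochondrially encoded counts was 6.84% to 8.65% in shTST and 10.8% to 11.7% in overTST, without overlap (two-sided exact permutation p = 0.0286), and 6.91% to 11.98% in WT. WT replicates 2 and 4 stood apart from replicates 1 and 3. Their chi-square per gene against those replicates was 18.04 and 20.36 for replicate 2 and 35.33 and 33.72 for replicate 4, and it was 5.87 between replicates 1 and 3. WT replicate 4 had the mitochondrial share of 11.98%, and leaving it out changed no call of a member. WT replicate 2 was the deepest library and had the highest WT value for 7 of the 9 members with more than 3 counts in any library. The share of all genes with their highest WT value there was not counted. Values without it were looked at for the members, TST, the genes named by size and the TGF-beta or activin targets. For these genes they are given where leaving it out ended a call or moved a called value by over 1.5 times. Other named genes were not checked in this way.

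Stretches at the RefSeq start of 4 members are shown because FST and TGFBR3 are the pair that were lower together in shTST, and BAMBI and SMAD6 are the members whose windows held the longest or the most SMAD-type motifs. They are the 250 bases before the RefSeq start (GRCh38.p14) of FST (chr5:53480379-53480628, plus strand), TGFBR3 (chr1:91886152-91886401, minus strand), BAMBI (chr10:28677271-28677520, plus strand) and SMAD6 (chr15:66701986-66702235, plus strand). RefSeq starts differ from the Ensembl gene ends printed with each member: the start used lay inside the Ensembl span by 220 bases for FST, 20184 for TGFBR3, 179 for BAMBI and 8 for SMAD6, so the windows lay wholly (TGFBR3) or mostly (FST and BAMBI) within it. Each is written 5′ to 3′ on the strand of the gene, with motif matches in capitals.
FST: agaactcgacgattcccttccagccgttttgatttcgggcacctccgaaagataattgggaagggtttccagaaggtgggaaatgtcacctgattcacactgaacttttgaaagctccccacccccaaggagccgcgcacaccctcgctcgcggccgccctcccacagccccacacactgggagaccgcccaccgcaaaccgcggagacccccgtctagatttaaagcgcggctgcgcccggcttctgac
TGFBR3: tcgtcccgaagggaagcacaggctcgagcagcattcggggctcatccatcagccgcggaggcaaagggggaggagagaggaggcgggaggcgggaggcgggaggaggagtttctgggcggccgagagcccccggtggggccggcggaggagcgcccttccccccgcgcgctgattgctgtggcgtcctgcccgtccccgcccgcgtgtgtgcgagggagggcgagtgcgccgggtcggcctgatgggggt
BAMBI: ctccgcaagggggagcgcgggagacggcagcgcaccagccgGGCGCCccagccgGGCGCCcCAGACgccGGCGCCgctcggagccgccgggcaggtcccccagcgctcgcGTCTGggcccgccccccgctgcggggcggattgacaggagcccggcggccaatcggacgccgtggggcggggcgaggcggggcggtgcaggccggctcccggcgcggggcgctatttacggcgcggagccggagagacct
SMAD6: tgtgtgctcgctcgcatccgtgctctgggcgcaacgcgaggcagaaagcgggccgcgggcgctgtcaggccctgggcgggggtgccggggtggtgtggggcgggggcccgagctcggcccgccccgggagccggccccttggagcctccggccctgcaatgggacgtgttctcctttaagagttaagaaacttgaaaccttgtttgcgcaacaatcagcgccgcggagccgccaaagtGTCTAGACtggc
Motifs searched on both strands were the palindromic SMAD element GTCTAGAC, the shorter SMAD site CAGAC, which reads GTCTG on the other strand, and the GC-rich BMP-SMAD core GGCGCC, none of which contains another. GTCTAGAC occurred in 0.182% of 35116 RefSeq windows of this length, CAGAC in 38.0% and GGCGCC in 16.4%. SMAD6 held GTCTAGAC 12 bases before the start. BAMBI held GGCGCC 3 times and CAGAC or its reverse complement 2 times. FST, TGFBR3, ID1 and INHBA held none of these motifs in the window, FSTL3 held GGCGCC once, SMAD7 held CAGAC 2 times and ID3 once, and 9 of the 10 members had an entry (INHBE had none). A match is a description of the sequence and not of binding.

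INHBE and INHBA encode the beta subunits of activin E and activin A. INHBE (chr12:57452323-57459280) was the member that passed the test in shTST against WT, among 7 tested, of which 5 had log2 fold changes below 0. It had 20.1, 23.2, 22.04 and 23.3 CPM in the WT libraries, 19.9, 16.1, 17.7 and 18.6 in shTST, and 16.8, 15.1, 23.9 and 24 in overTST. All shTST libraries lay below all WT libraries, whereas the overTST libraries fell into a low pair (replicates 1 and 2) and a pair above every WT library (replicates 3 and 4). The log2 fold change of INHBE was -0.30 in shTST against WT (SE 0.0724, adjusted p = 0.00706), a level 18.6% lower, and the adjusted p was 0.0552 when all 12 libraries were fitted together. In overTST it was -0.16 (SE 0.108, adjusted p = 0.281), with a 95% interval of -0.37 to 0.055, and -0.24 (adjusted p = 0.045) with the length correction and the replicate number as a block (replicate block). In bulk RNA, fewer cells with a transcript and less transcript per cell cannot be told apart.

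INHBA (chr7:41667168-41705834) had 0, 3, 2 and 0 counts in WT, 1, 1, 0 and 0 in shTST, and 0, 0, 0 and 1 in overTST. It was below the filter on low counts and was not fitted. A count of 0 in these libraries allows up to 0.0870 to 0.127 CPM (3 counts, counting error only). No difference in INHBA was detectable at this depth.

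FST (chr5:53480409-53487134), the secreted trap for activins whose window is printed first above, was selected for its lower level in shTST. It had 98.9, 110, 104 and 104 CPM in WT, 67.4, 72.4, 67.0 and 76.6 in shTST, and 94.99, 105, 113 and 106 in overTST. Every shTST library lay below every library of both other groups, and WT and overTST overlapped. Its log2 fold change was -0.56 (SE 0.0504) in shTST against WT, a level 32.1% lower, 0.0066 (SE 0.0548) in overTST against WT, and -0.56 (SE 0.0555) in shTST against overTST. Leaving out any 1 library kept the first value between -0.59 and -0.53. FST was chosen by this same difference, so the range describes these libraries and is no separate support.

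FSTL3 (chr19:676365-683399), the related trap, had 13.6, 15.9, 14.9 and 13 CPM in WT, 14.5, 17.6, 14.1 and 17.1 in shTST, and 15.3, 15.8, 12.95 and 12.5 in overTST. The 3 groups overlapped. Its log2 fold change was 0.14 in shTST (SE 0.0842, adjusted p = 0.292) and -0.024 in overTST (SE 0.0899, adjusted p = 0.864). Per exonic length, the level of FST was 7.53 ± 0.495 times that of FSTL3 in WT (SD, n = 4), 4.64 ± 0.285 times in shTST and 7.77 ± 1.32 times in overTST, and this ratio carries the choice of FST.

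TGFBR3 (chr1:91680343-91906335), the co-receptor betaglycan, was also chosen for its lower level in shTST, and its level was lower than WT in overTST as well. It had 85.1, 100.3, 86.5 and 93.7 CPM in WT, 67.1, 61.4, 51.7 and 65.2 in shTST, and 55.8, 50.1, 60.5 and 52.8 in overTST. Every library of both modified lines lay below every WT library, and the 2 lines overlapped each other. On the log2 scale the fold change was -0.58 (SE 0.0665) in shTST and -0.74 (SE 0.0627) in overTST against WT, and 0.16 (SE 0.0711) in shTST against overTST. These comparisons share the WT libraries. FST and TGFBR3 had like values in shTST and unlike values in overTST, where FST was at the level of WT.

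BAMBI (chr10:28677342-28682939), the decoy receptor, had 29.2, 37.9, 30.9 and 28.5 CPM in WT, 25.9, 30.7, 25.0 and 29.7 in shTST, and 27.5, 28.8, 26.3 and 24.4 in overTST. WT replicate 2 was the highest of the 12 libraries, and the groups overlapped in each comparison. BAMBI fell in overTST by 0.25 on the log2 scale (SE 0.0804, adjusted p = 0.0201). Without WT replicate 2 the log2 fold change was -0.14 (adjusted p = 0.127), and the call was also lost without overTST replicate 3 (adjusted p = 0.0565) or replicate 4 (adjusted p = 0.0738). In shTST the log2 fold change of BAMBI was -0.19 (SE 0.0819, adjusted p = 0.119), and it was called with the replicate block (-0.18, adjusted p = 0.0407) and without the filter (-0.20, adjusted p = 0.0269).

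**Figure D1:**
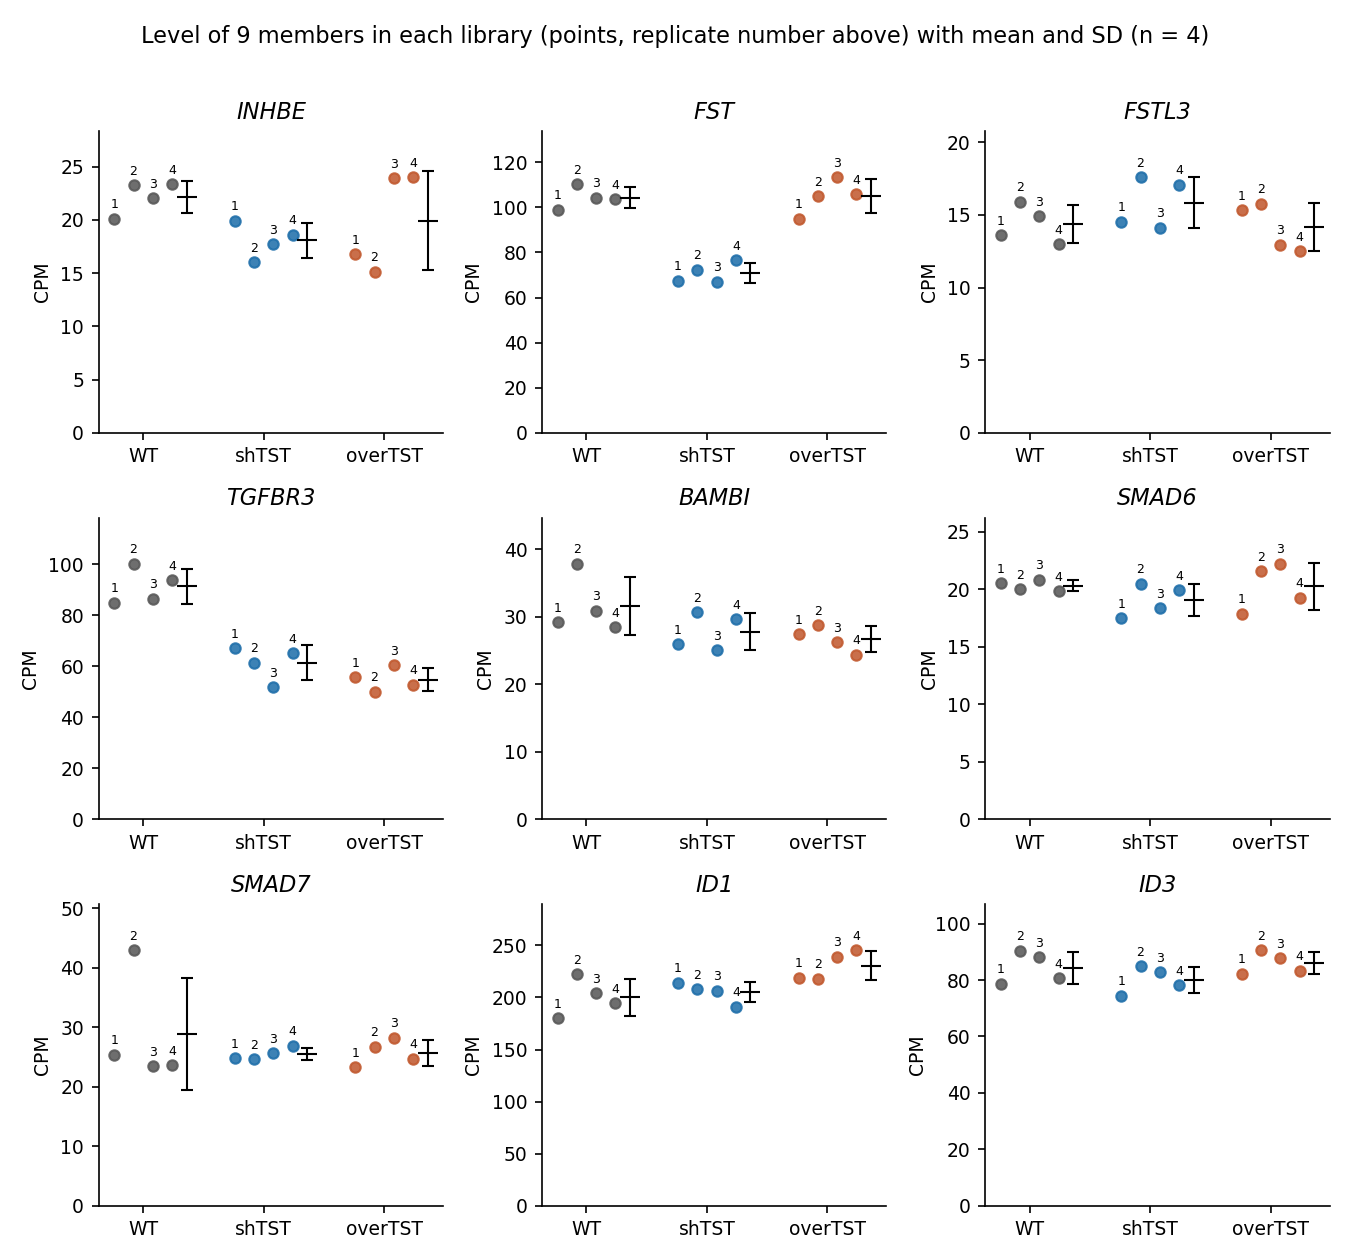
Level of 9 members in CPM (vertical axes, from 0) in each of the 12 libraries by group, with the replicate number above each point and the mean ± SD of 4 beside them. FST is low only in shTST and TGFBR3 in both lines, INHBE splits into 2 pairs in overTST, and WT replicate 2 stands at 43.0 CPM for SMAD7.

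For SMAD7 and SMAD6, the inhibitory SMADs, edgeR with the filter on low counts called no difference in the 3 comparisons. SMAD7 (chr18:48919853-48950711) had 25.4, 43.0, 23.5 and 23.6 CPM in WT, 24.8, 24.6, 25.7 and 26.9 in shTST, and 23.3, 26.7, 28.2 and 24.7 in overTST. WT replicate 2 stood far above the other 11 libraries, which ranged from 23.3 to 28.2 CPM. The log2 fold change of SMAD7 was -0.19 in shTST (SE 0.130, adjusted p = 0.345) and -0.18 in overTST (SE 0.131, adjusted p = 0.320). Without WT replicate 2 both turned positive, to 0.079 and 0.089. Without the filter SMAD7 was called lower in both lines (-0.20 in each, adjusted p = 0.0305 in shTST and 0.0378 in overTST). SMAD6 (chr15:66702228-66782848) had 20.5, 20.0, 20.9 and 19.8 CPM in WT, 17.5, 20.5, 18.4 and 19.9 in shTST, and 17.9, 21.6, 22.2 and 19.3 in overTST. Its groups overlapped, with log2 fold changes of -0.089 (95% interval -0.22 to 0.039, adjusted p = 0.385) in shTST and -0.0042 (-0.15 to 0.14, adjusted p = 0.972) in overTST. Between the lines SMAD6 was called lower in shTST with the length correction and replicate block together (-0.19, adjusted p = 0.0454).

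ID1 and ID3 encode inhibitors of basic helix-loop-helix transcription factors and are classical early targets of BMP signals. ID1 (chr20:31605283-31606515) had 180, 222, 204 and 194 CPM in WT, 214, 208, 207 and 191 in shTST, and 219, 218, 239 and 246 in overTST. The overTST libraries overlapped WT only through WT replicate 2, and all lay above the shTST libraries. The log2 fold change of ID1 was 0.034 in shTST against WT (SE 0.0540, adjusted p = 0.726), 0.20 in overTST against WT (SE 0.0582, adjusted p = 0.00885) and -0.17 in shTST against overTST (SE 0.0562, adjusted p = 0.0226). The overTST call was lost without WT replicate 1 (adjusted p = 0.0528). The difference between the lines was not called without shTST replicate 4 or overTST replicate 3 or 4. After the correction for gene length the log2 fold change of ID1 was 0.025 (adjusted p = 0.788) in overTST against WT and -0.023 (adjusted p = 0.807) between the lines.

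ID3 (chr1:23557918-23559794) had 78.7, 90.3, 88.1 and 80.6 CPM in WT, 74.5, 84.9, 82.8 and 78.1 in shTST, and 82.2, 90.6, 87.7 and 83.4 in overTST. The groups overlapped throughout. Its log2 fold change was -0.076 (SE 0.0532, adjusted p = 0.357) in shTST and 0.026 (SE 0.0546, adjusted p = 0.754) in overTST. The intervals held differences in either direction of up to -0.18 in shTST and 0.13 in overTST.

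The members called are set here beside all genes. In shTST, 0 of the 7 tested members were higher and 1 (INHBE) was lower, where 6.69% of 14584 genes tested were higher and 9.4% lower by the same edgeR rule (adjusted p at or below 0.05). In overTST, 1 of 7 (ID1) was higher and 1 (BAMBI) lower, where 15.7% of 14421 genes were higher and 18.2% lower. The count of higher members in shTST was also 0 at an unadjusted p under 0.05 and with DESeq2 and limma-voom. Between the lines, 0 of 7 were higher in shTST and 1 (ID1) was lower, beside 16.9% and 16.1% of 14883 genes, and again 0 were higher at an unadjusted p under 0.05 and with DESeq2 and limma-voom. The median log2 fold change of the 7 tested members was -0.089 in shTST and -0.024 in overTST, beside 0.0040 and 0.0019 for all genes tested.

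**Figure D2:**
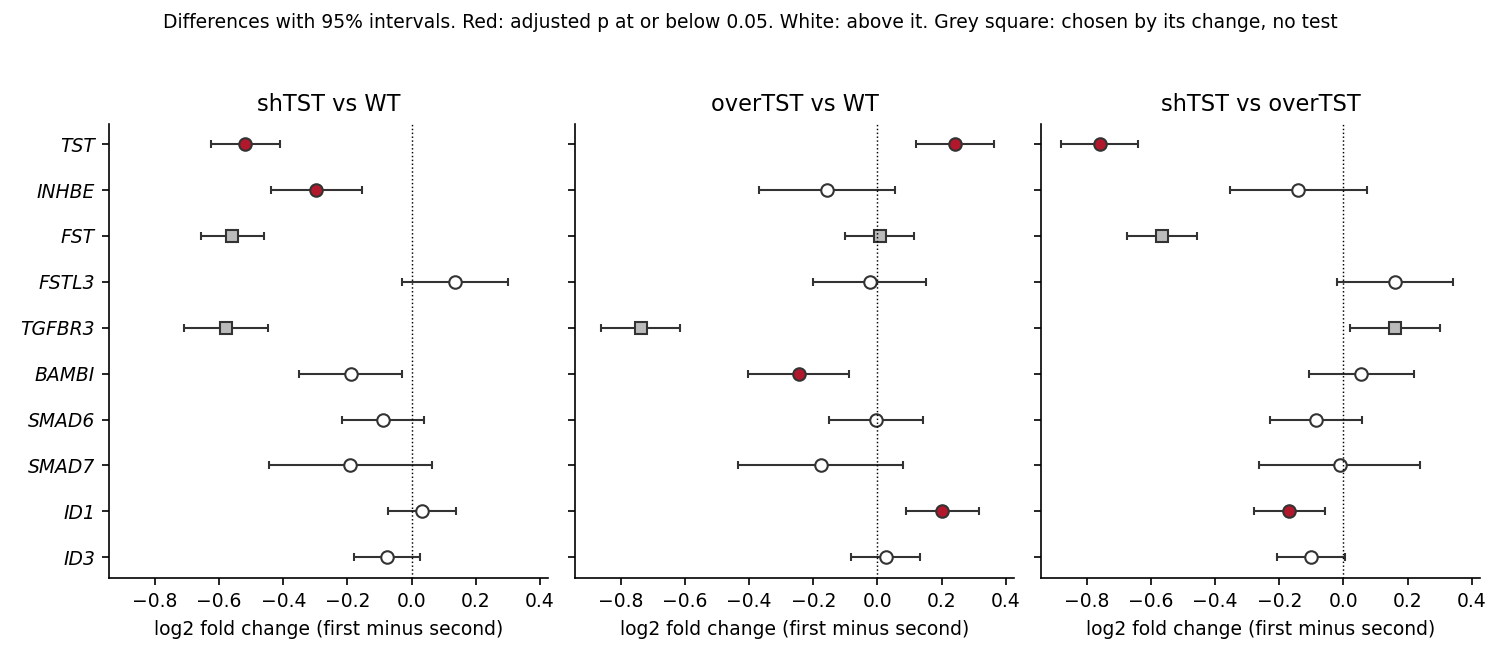
Log2 fold change (horizontal axes, first group minus second) with its 95% interval for TST and 9 members in the 3 comparisons. Red points passed the test, white points did not, and grey squares are FST and TGFBR3, chosen by their change and not tested. The intervals of FST and TGFBR3 take no account of that choice. They describe the spread between these libraries and cannot be read as tests. INHBE passed in shTST against WT, BAMBI and ID1 in overTST against WT, and ID1 between the lines.

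Between genes, levels were compared per exonic length. In WT the order by RPKM was ID1 (162), ID3 (47.0), FST (35.1), BAMBI (13.7), TGFBR3 (10.5), SMAD7 (7.82), INHBE (7.36), FSTL3 (4.68), SMAD6 (2.37) and INHBA (0.0040). The 4 highest were separated from their neighbours in every library of WT, whereas TGFBR3, SMAD7 and INHBE were not all separated: SMAD7 overlapped both of the others. The order of means in shTST was the same, although FST was lower there at 23.9 RPKM. In overTST, TGFBR3 (6.29 RPKM) came after SMAD7 (6.97) and INHBE (6.61), with ranges that overlapped among these 3.

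**Figure D3:**
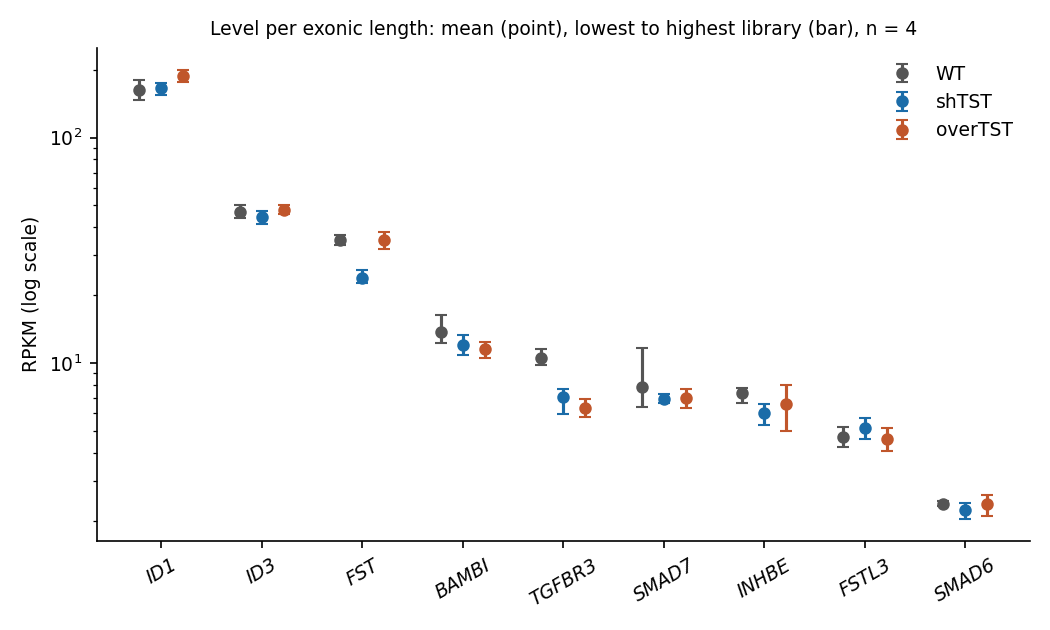
Level per exonic length in RPKM (vertical log axis) of 9 members, ordered by their WT mean, with points for the mean of 4 libraries and bars from the lowest to the highest library in each group. ID1 leads at 162 to 187 RPKM and SMAD6 is the lowest drawn, at 2.23 to 2.37 RPKM.

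The genes most like FST and TGFBR3 across the 12 libraries were found by the root mean square difference of centred log2 CPM, over 11530 genes with an average log2 CPM of at least 1. CACNA2D4, a calcium channel subunit, was the closest to FST at 0.0688, followed by EVA1B at 0.0859 and SRARP at 0.0881 (median of all genes 0.309). CACNA2D4 had 33.4 ± 0.606 CPM in WT, 23.4 ± 1.70 in shTST and 32.3 ± 1.82 in overTST (SD, n = 4). The closest to TGFBR3 were ITGA2, an integrin collagen receptor subunit, at 0.116, the transcription factor KLF9 at 0.117 and TEP1 at 0.117 (median 0.356). ITGA2 had 43.0 ± 6.06 CPM in WT, 28.2 ± 3.30 in shTST and 26.2 ± 1.15 in overTST. This likeness describes these libraries only.

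The members were then set within 127 genes of the wider TGF-beta superfamily, listed by role. Of the 125 other than FST and TGFBR3, 80 were tested in shTST, with 5 higher and 14 lower, and 81 in overTST, with 9 higher and 21 lower. Of all genes tested, 6.69% were higher and 9.4% lower in shTST, and 15.7% higher and 18.2% lower in overTST. The median log2 fold change of the tested genes was -0.030 in shTST and -0.093 in overTST. Genes named here beyond the 10 members were taken by size among those past the test, and others from the list are named after their values were seen.

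Among ligands, 11 of 33 were tested in shTST, and 3 were lower, where 9.4% of all genes were: TGFB1, the main TGF-beta, by 0.32 on the log2 scale (adjusted p = 0.000238), INHBE, and GDF15, a stress-induced ligand of the GFRAL receptor, by 0.32 (adjusted p = 0.0118, and by 0.19 without WT replicate 2, adjusted p = 0.0279, but not called by DESeq2, adjusted p = 0.0972). GDF15 had 108, 174, 132 and 135 CPM in WT, 112, 109, 109 and 109 in shTST, and 160, 185, 224 and 225 in overTST. GDF15 rose in overTST with a log2 fold change of 0.53 (adjusted p = 0.000264), and it was lower in shTST than in overTST by 0.85 (adjusted p = 9.2e-07). BMP4 also rose in overTST (log2 fold change 0.21, adjusted p = 0.00192). BMP6 was at a low level, 0.191 CPM in WT and 0.578 CPM in overTST. It passed the filter on low counts only through the overTST libraries, so its p is not given. BMP6 is still counted among the higher genes of the wider list in overTST. GDF7 fell there by 0.32 on the log2 scale (adjusted p = 0.000646), and by 0.17 with the length correction (adjusted p = 0.0476).

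Of the 9 tested type I and type II receptors, edgeR called 0 in shTST (3 were higher at an unadjusted p under 0.05, DESeq2 called 1 of them and limma-voom 0), and 3 fell in overTST, where 18.2% of all genes were lower (9.4% in shTST). In overTST the log2 fold change was -0.36 for TGFBR2 (adjusted p = 1.7e-05), -0.41 for BMPR2 (adjusted p = 0.000204) and -0.22 for ACVR2B (adjusted p = 0.0335). With the correction for gene length 2 receptors stayed below WT, TGFBR2 at -0.34 and BMPR2 at -0.24, where 2058 of 14421 genes were lower. The co-receptor NRP1, which also binds semaphorins and VEGF, moved in opposite directions: its log2 fold change was 0.26 in shTST (adjusted p = 0.0144) and -0.35 in overTST (adjusted p = 0.00214), where the length correction left -0.18 (adjusted p = 0.0787). NRP1 was 0.61 higher in shTST than in overTST on the log2 scale (adjusted p = 4.8e-06).

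Of the receptor-activated and common SMADs, SMAD5 rose in shTST (log2 fold change 0.22, adjusted p = 0.0372), and SMAD1 (-0.26, adjusted p = 0.0241), SMAD3 (-0.27, adjusted p = 0.00496) and SMAD4 (-0.20, adjusted p = 0.0433) fell in overTST. With the length correction none of the 3 kept its call in overTST, and SMAD2 was called higher (log2 fold change 0.27, adjusted p = 0.00141). Among 14 tested intracellular regulators, 6 fell in overTST and 1 rose, where 18.2% of all genes fell and 15.7% rose. With the length correction 4 fell and 2 rose, beside 2058 and 2047 of all 14421 genes. Those that fell were led by LEMD3, an inner nuclear membrane protein that binds SMADs and represses them. LEMD3 had 18.5, 23.2, 18.1 and 21.1 CPM in WT, 20.2, 19.2, 17.8 and 19.1 in shTST, and 13.2, 11.6, 13.4 and 11.4 in overTST, a log2 fold change of -0.71 in overTST (adjusted p = 2.2e-06). LEMD3 in shTST overlapped WT (log2 fold change -0.092).

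Among 8 tested genes of ligand latency and activation, THBS1 (thrombospondin 1, an activator of latent TGF-beta) rose in shTST and fell in overTST. It had 156, 169, 154 and 127 CPM in WT, 199, 185, 202 and 193 in shTST, and 113, 117, 103 and 94.3 in overTST, with no overlap between any of the groups. THBS1 had log2 fold changes of 0.36 in shTST (adjusted p = 0.000371), -0.50 in overTST (adjusted p = 9.4e-06) and 0.87 between the lines (adjusted p = 2.1e-09). FURIN, the protease that cleaves the precursors of these ligands, fell in shTST by 0.27 on the log2 scale (adjusted p = 0.0019). In overTST the integrin subunit ITGAV (-0.44, adjusted p = 8.8e-05) and the latent TGF-beta binding proteins LTBP3 (-0.31, adjusted p = 0.000192) and LTBP4 (-0.50, adjusted p = 0.0215) also fell. With the length correction LTBP3 was at -0.16 (adjusted p = 0.0442). LTBP4 was at 1.78 CPM there and its adjusted p was 0.0812 with the length correction and 0.0662 to 0.0717 without WT replicate 4 or overTST replicate 2 or 3.

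Genes known as targets of TGF-beta or activin were mostly lower in shTST. Of 11 tested, 8 fell and 1 rose, with a median log2 fold change of -0.37, where 9.4% of all genes tested were lower and 6.69% higher. The count of targets rested in part on WT replicate 2, which had the highest WT value for 7 of these 11 genes. How often this held over all genes was not counted. JUNB, a subunit of the AP-1 factor, had 11.2, 28.2, 12.3 and 11.5 CPM in WT and 9.88, 9.25, 10.4 and 10.4 in shTST. For JUNB the log2 fold change was -0.69 (adjusted p = 0.0229) with all libraries and -0.22 (adjusted p = 0.079) without WT replicate 2. KLF10, an early TGF-beta response factor, had 20.4, 33.3, 18.3 and 19.9 CPM in WT and 17.8, 17.7, 17.8 and 18.6 in shTST, and its log2 fold change went from -0.37 (adjusted p = 0.0474) to -0.12 (adjusted p = 0.261). Without WT replicate 2, 3 targets were lower, among them the cyclin-dependent kinase inhibitor CDKN2B and the LIM-domain protein LMCD1. The calls of CCN2 (log2 fold change -0.13, adjusted p = 0.0583), SNAI1 (-0.43, adjusted p = 0.0604) and SPHK1 (-0.13, adjusted p = 0.0617) were also lost without that library. CDKN2B fell by 0.50 and LMCD1 by 0.44 on the log2 scale with all libraries (adjusted p = 0.00792 and 0.00436). The count was 5 without shTST replicate 1 or without shTST replicate 2, and 5 with DESeq2.

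**Figure D4:**
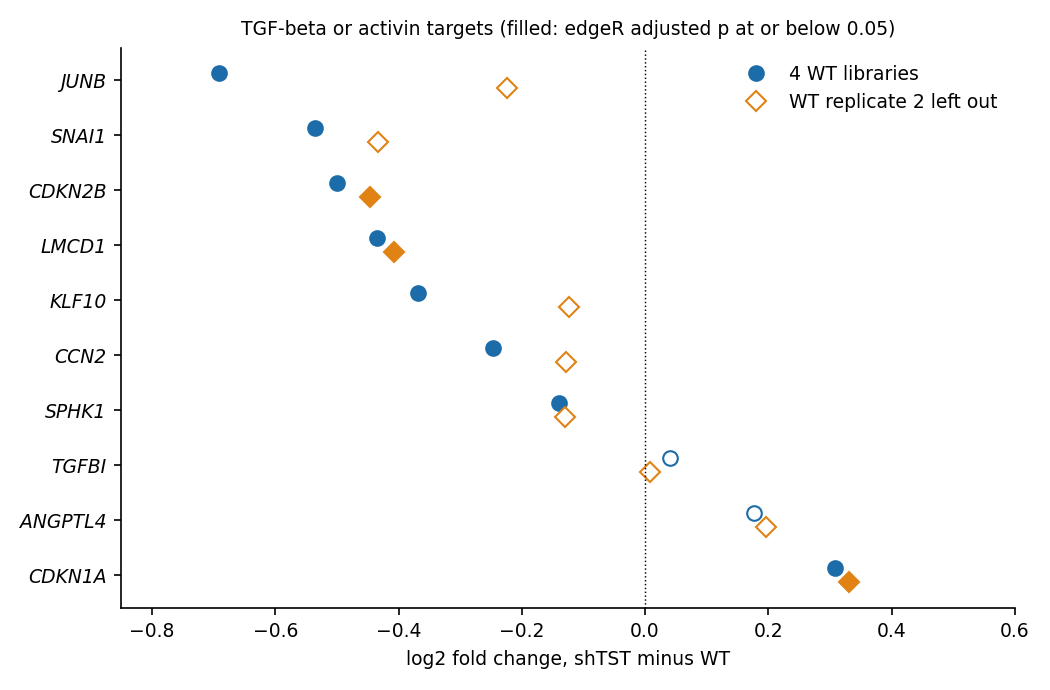
Log2 fold change (horizontal axis, shTST minus WT) of 10 TGF-beta or activin targets with all 4 WT libraries (circles) and with WT replicate 2 left out (diamonds), filled where the edgeR adjusted p was at or below 0.05. CDKN2B and LMCD1 were lower with both sets, JUNB moved from -0.69 to -0.22, and CDKN1A was higher with both.

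CDKN1A, the cyclin-dependent kinase inhibitor p21 and also a p53 target, was the target that rose in shTST. It had 56.8, 68.9, 71.3 and 67.0 CPM in WT, 81.8, 83.0, 83.9 and 78.0 in shTST, and 86.3, 83.5, 88.6 and 84.8 in overTST. Both lines lay above WT without overlap, with log2 fold changes of 0.31 (adjusted p = 0.000951) in shTST and 0.38 (adjusted p = 3.4e-05) in overTST against the same WT libraries. In overTST 2 of 11 targets fell, KLF10 by 0.51 (adjusted p = 0.00333) and the matrix protein CCN2 by 0.33 on the log2 scale (adjusted p = 0.000983), beside 18.2% of all genes. Without WT replicate 2, KLF10 was at -0.26 (adjusted p = 0.0133) and CCN2 at -0.21 (adjusted p = 0.00249) in overTST. DESeq2 did not call KLF10 there (adjusted p = 0.0509).

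Of 8 tested BMP targets, 1 fell in shTST, where 9.4% of all genes did: HEY1, a transcriptional repressor also induced by Notch, by 0.69 on the log2 scale (adjusted p = 0.00621). HEY1 had 3.54, 5.34, 2.95 and 3.90 CPM in WT, 2.72, 2.55, 2.58 and 2.02 in shTST, and 4.48, 4.96, 5.25 and 4.55 in overTST. Between the lines HEY1 was lower in shTST by 0.96 (adjusted p = 6.4e-05), and without WT replicate 2 it was lower by 0.49 against WT. In overTST the log2 fold change of HEY1 was 0.27 (adjusted p = 0.174), and 0.47 (adjusted p = 0.0135) without WT replicate 2. In overTST 3 BMP targets rose, beside 15.7% of all genes: ID1, HAMP and MSX1. HAMP had 33.9, 29.9, 38.4 and 31.6 CPM in WT, 34.9, 42.3, 35.8 and 37.6 in shTST, and 42.0, 47.7, 49.6 and 42.6 in overTST, with a log2 fold change of 0.45 in overTST (adjusted p = 5.3e-05). In shTST it was 0.18, and 0.25 (adjusted p = 0.0152) without WT replicate 3. MSX1 was 0.18 higher on the log2 scale (adjusted p = 0.0421). With the length correction 1 of these 3, HAMP, passed the test (log2 fold change 0.38, adjusted p = 0.000181). That correction left 2047 of 14421 genes called higher.

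Exonic length moved with the differences in overTST. The median log2 fold change of all genes there was 0.21 for genes of up to 1 kb, 0.18 for 1 to 2 kb, 0.072 for 2 to 4 kb, -0.052 for 4 to 8 kb and -0.16 for longer genes. In shTST these medians ran from 0.057 to -0.020. ID1 and ID3 belong to the class of 1 to 2 kb, INHBE, BAMBI, SMAD7, FST and FSTL3 to that of 2 to 4 kb, and TGFBR3 and SMAD6 to the longest. With the correction TGFBR3 was at -0.61 in overTST (from -0.74), BAMBI at -0.36 (from -0.25, adjusted p = 0.00184) and FST at -0.066. Of the 81 tested genes of the wider list, 10 were then higher and 13 lower in overTST, in place of 9 and 21. Of all 14421 genes tested, 2047 were higher and 2058 lower with the same correction. What lies behind this trend was not tested.

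**Figure D5:**
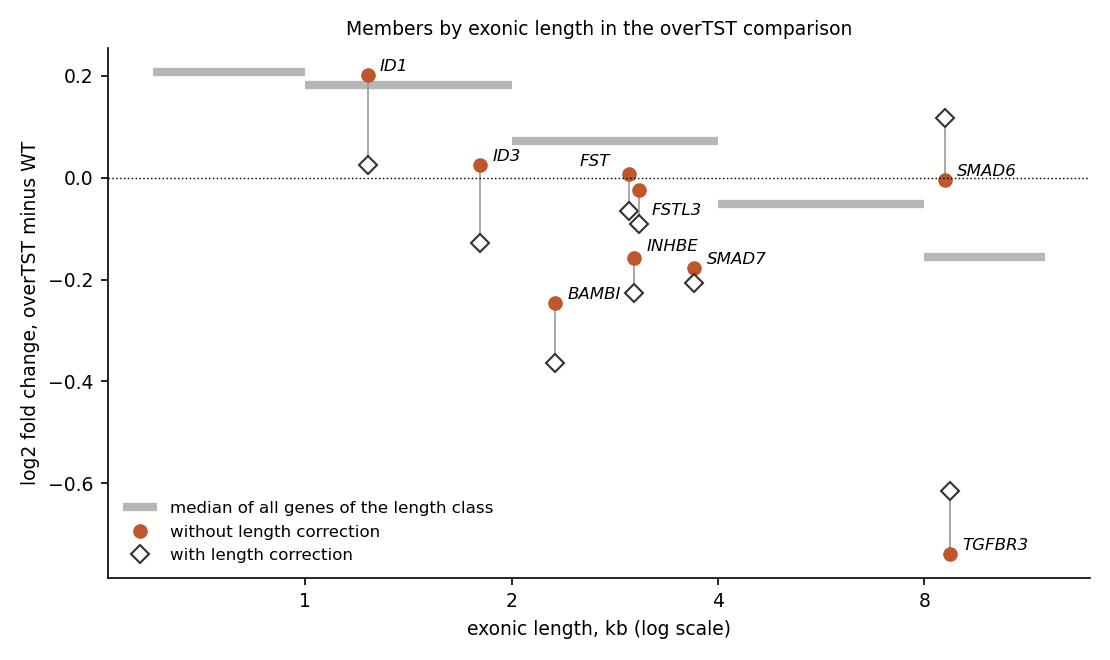
Log2 fold change in overTST against WT (vertical axis) of 9 members by exonic length in kb (log axis), without (filled circles) and with (open diamonds) the length correction, and the median of all genes in each length class without correction (grey bars). ID1 lies on the median of its class and near 0 after correction, while TGFBR3 remains at -0.61.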

How the data were processed

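HepG2 total RNA was sequenced in 12 libraries (WT, shTST and overTST, 4 each). The authors deposited raw whole-number counts for each Ensembl gene, with its exonic length. The submitters' processing notes name Trimmomatic 0.36, STAR 2.5.2b, featureCounts of Subread 1.5.2 and GRCh38. The annotation release and strand setting are not given in the sources used here. Members and lists were chosen with earlier results of these data known.

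Counts were filtered with filterByExpr, scaled by TMM and analysed by quasi-likelihood F-tests in edgeR 4.0.16 (R 4.3.3), with Benjamini-Hochberg adjustment over all genes tested at 0.05. Comparisons with WT used the 8 libraries concerned, and that between the lines used all 12. Standard errors come from the F statistic, and log2 CPM used a prior count of 2. The procedure was run on simulated counts with the same spread for all genes. Those counts held no length trend, outlying library or replicate effect, so they do not bear on these features. No member shared exonic bases with another gene. Total counts of 22911380 to 45120508 per library set the counting error. Single values were compared with exact permutation tests.

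Alternatives were DESeq2 1.42.0, limma-voom (limma 3.58.1), RLE and upper-quartile scaling, testing without a filter, requiring above 1 CPM in 4 libraries, all 12 libraries in 1 fit (for the lines, 8), the replicate number as a block, a lowess correction for exonic length with and without the block, leaving out mitochondrially encoded genes, and leaving out each library. Named genes were the members, TST, the 3 higher and 3 lower genes of the wider list with the largest change in each comparison (adjusted p at or below 0.05, average log2 CPM of at least 1), and the 3 nearest profiles of FST and TGFBR3. A gene that the rule names is not reported here. Upstream sequences were taken from RefSeq (GRCh38.p14).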

Additional observations from a re-analysis of the deposited data

Results flagged for a closer look

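In a group of 4 libraries, a value was singled out when its gap to the nearest other library, divided by the range of the group, was above Dixon's critical value at 95%. Of 102 such groups looked at, 8 were singled out, and chance alone gives about 1 in 20. WT replicate 2, the deepest library, was the high one for SMAD7 (gap 0.902 of the range, 42.98 CPM against 23.46 to 25.37 in the other WT libraries), JUNB (0.933, 28.24 CPM) and KLF10 (0.857, 33.27 CPM). The groups looked at covered only the members, TST, listed target genes, genes named by size, total counts and mitochondrial share. Whether the high values of this library are particular to the pathway was not tested. The values without this library stand beside each result.

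The other 5 were in the modified lines. KLF10 in shTST was singled out in replicate 4 (gap 0.92), with a group range of 17.72 to 18.59 CPM. TGFBI in shTST was high in replicate 1 (0.921), at 445 CPM against a lowest value of 433.6. TST in shTST was high in replicate 3 (0.837), at 36.55 CPM, still below every WT library. MSX1 in overTST was low in replicate 1 (0.858), at 27.66 CPM against up to 30.76. ANGPTL4 in overTST was high in replicate 4 (0.85), at 1.455 CPM against a lowest value of 0.7897.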

How the results depend on the processing

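INHBA was the only member below the filter on low counts, and whether depth limited the calls of the other members was not tested. Leaving out single libraries gave 1513 to 2336 genes changed in shTST (2346 with all, the lowest without shTST replicate 1), 3 to 8 TGF-beta or activin targets lower in shTST (8 with all), 1 to 2 members changed in overTST (2 with all) and 0 to 1 between the lines (1 with all). The lower member in shTST was 1 in every such fit. In shTST, DESeq2 called 5 targets lower, the fit without a filter called 3 members (BAMBI and SMAD7 beside INHBE), and the fit of all 12 libraries called 0. With the length correction 1 member was called in overTST and 0 between the lines. Of all genes, it called 2047 higher and 2058 lower of 14421 in overTST. Between the lines it called 1928 higher and 2214 lower of 14883. The cause of these shifts was not tested. With the unit TPM in place of RPKM, all 30 ranks of members within groups were kept.

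Same-numbered libraries deviated together with correlations of -0.053 to 0.080, none above 0.1. Between shTST and WT the same number was the closest match for replicates 1, 2 and 3. Between overTST and WT this held for replicates 1 and 3, and between the lines for replicate 1. These values do not settle whether the numbers mark pairs. The main fits did not use pairs, and fits with the replicate block are given beside them. With the replicate block 2 members were called in shTST (INHBE and BAMBI), and 2 with the length correction and replicate block. That last fit called 2 members between the lines (SMAD6 and FSTL3, in place of ID1), called INHBE in overTST, and put ID3 in overTST at -0.13 (adjusted p = 0.0355), from 0.026 without both.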

Other observations

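Inhibin and activin subunits other than INHBE had lower mean levels than INHBE in WT, and only INHBA was near 0. In WT, INHBC had 2.94 RPKM, INHA, the inhibin alpha subunit that betaglycan binds in the inhibin dimer, 2.82 RPKM and INHBB 2.39 RPKM, beside 7.36 RPKM for INHBE. INHA had a log2 fold change of 0.33 in shTST against WT (edgeR adjusted p = 0.101) and was higher in shTST than in overTST by 0.36 (adjusted p = 0.0427, no overlap). INHBC had log2 fold changes of 0.20 (adjusted p = 0.155) and 0.14 (adjusted p = 0.318) in shTST and overTST. Among BMP antagonists, CHRD (chordin) was higher in shTST than in overTST by 0.32 on the log2 scale (adjusted p = 0.0137), but with the length correction by 0.26 (adjusted p = 0.061).

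FKBP1A, which binds type I receptors and keeps them inactive, rose from 328.5 ± 15.9 CPM in WT to 392.6 ± 6.48 in overTST (SD, n = 4, log2 fold change 0.26, edgeR adjusted p = 0.000215, and 0.16 with the length correction, adjusted p = 0.00982). ENG (endoglin), the co-receptor related to TGFBR3, rose in overTST from 0.792 to 1.35 CPM (log2 fold change 0.75, adjusted p = 0.0158) and was at 0.555 CPM in shTST. The most abundant listed ligands per length in WT were GDF15 at 65.7 RPKM, TGFB1 at 54.04 RPKM and BMP4 at 52.9 RPKM.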
